A study of Mus musculus with 2 samples.

Results

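Axon guidance genes were examined in ChIP-seq peak lists of the transcription factors ETS1 and ETS2 from endothelial cells of the mouse aorta. The members are the protein-coding genes of the RefSeq table of GRCm38.p6 (the assembly behind mm10) whose symbols begin with Sema3 to Sema7, Plxn or Unc5, or are Slit1 to Slit3, Robo1 to Robo4 or Ntn1 to Ntn5. The rule found 46 of 21887 genes, namely 20 semaphorin, 9 plexin, 4 netrin, 4 Robo, 4 Unc5 and 3 Slit genes, and 2 further genes that share only the start of a name. These are Unc50, which encodes a Golgi protein, and Unc5cl, which resembles the inner part of an Unc5 receptor. For ligands against receptors, 27 semaphorin, Slit and netrin genes were set beside 17 plexin, Robo and Unc5 genes, and Unc50 and Unc5cl were left out of both. The members were chosen by name and not by their peaks.

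Chromatin came from wild-type mouse aortic endothelial cells that had been cultured at 37 °C and 5% CO2 in DMEM-F12 medium containing 20% serum, heparin and an endothelial growth supplement. One portion was precipitated with an ETS1 antibody and another with an ETS2 antibody, 10 µg in each case from 15000000 cells, and sequenced from a single end. There was 1 library per antibody, and no control precipitate was used here. No difference below could therefore be set against a spread between replicates, and the counts describe these peak lists without a test. Per the file headers, the ETS1 list holds 77295 peaks from 143778022 tags and the ETS2 list 63556 peaks from 134607908 tags. A peak list holds no expression, so the cell label could not be checked on transcripts. Of 10 endothelial marker genes, 1 had an ETS1 and 6 an ETS2 peak at an end, beside 3 and 3 of 5 smooth muscle and 1 and 1 of 3 blood cell markers. Among all protein-coding genes the shares were 39.4% (ETS1) and 40% (ETS2). With so few markers these counts cannot check the cell label.

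Semaphorins, Slits and netrins are guidance cues that steer growing axons and migrating cells. Class 3 semaphorins are secreted and mostly signal through a plexin paired with a neuropilin, whereas classes 4 to 7 are held at the membrane and bind plexins directly. Slits are ligands of Robo receptors, and netrins bind Dcc, neogenin and the Unc5 receptors. In blood vessels several of these pairs act on sprouting and barrier function, among them Sema3e with its receptor plexin D1, and Unc5b and Robo4, which are found in endothelium.

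ETS factors recognise a GGAA core, and 9 members had a peak over a RefSeq promoter window, which runs from 250 bases before to 50 bases after a transcription start. Of these, 4 are printed because a peak covered 80 or more of their bases, together with the window of Robo4, the Robo gene of endothelium, where no peak lay. Sequences are from RefSeq (GRCm38.p6), 5′ to 3′ along the gene, and capitals mark GGAA and its reverse complement TTCC. The Unc5b window is chr10:60831532-60831831 on the minus strand, and an ETS1 peak covered bases 22 to 198. The Sema6b window is chr17:56140294-56140593 on the minus strand, with an ETS1 peak over bases 35 to 211. The Plxnd1 window is chr6:115994956-115995255 on the minus strand, with an ETS2 peak over bases 1 to 114. The Sema3e window is chr5:14025026-14025325 on the plus strand, with an ETS2 peak over bases 221 to 300. The Robo4 window is chr9:37401722-37402021 on the plus strand.
Unc5b: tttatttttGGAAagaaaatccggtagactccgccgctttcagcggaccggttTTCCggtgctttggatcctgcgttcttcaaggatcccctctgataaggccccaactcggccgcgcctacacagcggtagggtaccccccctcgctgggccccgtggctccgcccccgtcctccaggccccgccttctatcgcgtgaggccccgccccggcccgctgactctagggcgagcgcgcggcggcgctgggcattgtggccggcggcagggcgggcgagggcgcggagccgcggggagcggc
Sema6b: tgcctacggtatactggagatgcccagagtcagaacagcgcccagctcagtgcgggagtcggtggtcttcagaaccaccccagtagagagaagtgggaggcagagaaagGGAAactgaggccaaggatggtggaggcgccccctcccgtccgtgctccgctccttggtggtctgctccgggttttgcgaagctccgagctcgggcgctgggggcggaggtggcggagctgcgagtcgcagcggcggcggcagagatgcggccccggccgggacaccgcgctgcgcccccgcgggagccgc
Plxnd1: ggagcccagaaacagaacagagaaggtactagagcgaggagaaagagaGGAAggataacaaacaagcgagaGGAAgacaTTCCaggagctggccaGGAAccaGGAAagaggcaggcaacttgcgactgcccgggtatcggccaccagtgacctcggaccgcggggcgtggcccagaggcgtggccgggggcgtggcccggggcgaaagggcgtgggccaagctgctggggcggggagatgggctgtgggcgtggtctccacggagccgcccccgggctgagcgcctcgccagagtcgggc
Sema3e: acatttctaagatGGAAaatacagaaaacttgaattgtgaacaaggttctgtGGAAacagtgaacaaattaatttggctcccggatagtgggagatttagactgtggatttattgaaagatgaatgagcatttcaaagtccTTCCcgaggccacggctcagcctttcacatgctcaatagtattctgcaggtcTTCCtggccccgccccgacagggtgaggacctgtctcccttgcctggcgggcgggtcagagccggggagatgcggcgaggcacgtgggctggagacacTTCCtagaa
Robo4: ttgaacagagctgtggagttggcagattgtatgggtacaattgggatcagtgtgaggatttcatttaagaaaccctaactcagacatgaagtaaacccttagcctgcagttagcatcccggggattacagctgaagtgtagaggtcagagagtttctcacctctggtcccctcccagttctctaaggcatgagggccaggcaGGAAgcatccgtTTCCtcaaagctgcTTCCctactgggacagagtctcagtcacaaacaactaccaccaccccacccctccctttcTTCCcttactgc

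In the Plxnd1 window all 5 cores (on either strand) fell in the part under the ETS2 peak. The part under a peak held 1 of 2 cores in Unc5b, 1 of 1 in Sema6b and 1 of 5 in Sema3e. Robo4 had 4 cores and no peak over them, so a core was present with and without a peak. At least 1 GGAA was found on either strand in 48 of 51 member windows (94.1%), beside 95.7% of the 21263 windows of all protein-coding genes. The longer sequence CCGGAAGT, which contains the core, was in 0 of the 51 member windows and in 5.15% of all windows, both strands searched. In all windows with a peak of either list over them it was in 11.9%. ACAGGAAG, which also contains the core, was in 2 of 51 member windows and 3.23% of all. A peak of the ETS1 list lay over 3 member windows (5.88%, beside 14.5% of all windows) and one of the ETS2 list over 6 (11.8%, beside 16.5%).

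Within 1 kb of their ends, guidance genes carried peaks at shares near or below those of all genes, without a test. The order of the shares changed with the window for ETS2 and with the chromosomes kept for ETS1, as given below. An end peak here is a peak whose centre lies within 1 kb of the first or last annotated base of a gene. It was found at 17 of 46 members in the ETS1 list (37.0%, background 39.4% of all protein-coding genes) and at 16 in the ETS2 list (34.8%, background 40%). Both lists marked 10 members (21.7%, background 28.7%). In the ETS1 list alone were 7 members (15.2%, background 10.7%) and in the ETS2 list alone 6 (13.04%, background 11.3%), while 23 had neither (background 49.3%). The ETS2 count depended on the width of the window, with 10 members within 500 bp (21.7%, background 31.9%) and 26 within 2.5 kb (56.5%, background 47.7%). It thus stood below the share of all genes within 500 bp and 1 kb, and above it within 2.5 kb. The nearest ETS2 peak of 6 members lay 1 to 1.5 kb from an end, as at Ntn5 (1015 bp), Sema4g (1050 bp) and Sema4c (1055 bp), just outside the window. Just inside it were the ETS2 peaks of Sema3f at 964 bp and Sema7a at 770 bp.

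**Figure D1:**
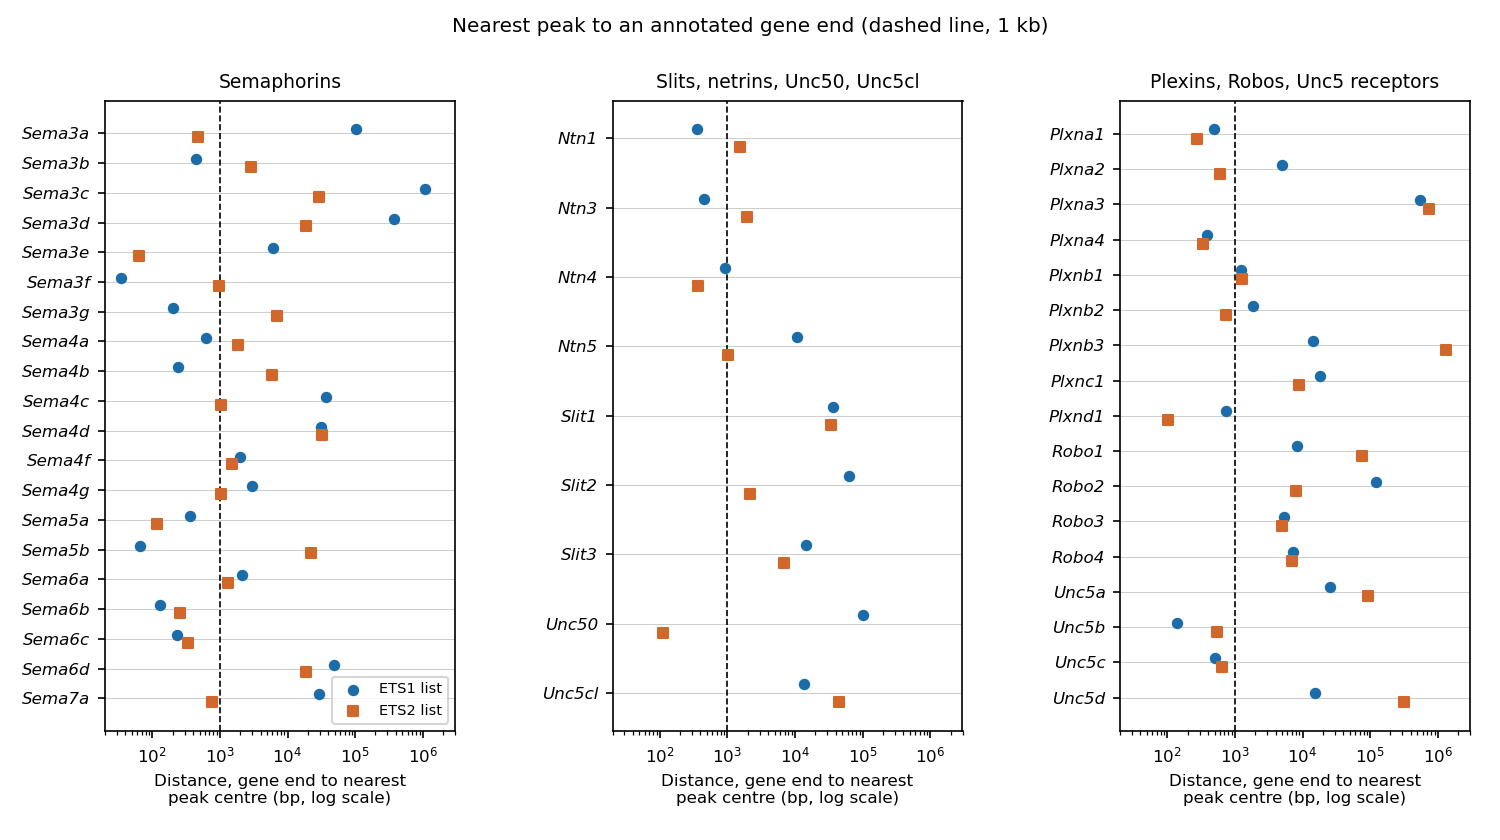
Distance in bp (log scale) from an annotated end of each guidance gene to the centre of its nearest ETS1 peak (circles) and ETS2 peak (squares), 1 library each. Points left of the dashed line are end peaks; none of the Slit or Robo genes has one in either list, and the nearest is an ETS2 peak 2144 bp from an end of Slit2.

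The 10 members in both lists were the semaphorin genes Sema3f, Sema5a, Sema6b and Sema6c, the netrin gene Ntn4, the plexin genes Plxna1, Plxna4 and Plxnd1, and the netrin receptor genes Unc5b and Unc5c. In 9 of the 10 the peaks of both lists lay at the same end, but they overlapped in only 5, Ntn4, Plxna1, Sema6c, Unc5b and Unc5c. At Unc5b the ETS1 peak chr10:60830970-60831146 and the ETS2 peak chr10:60830943-60831129 shared 160 bp, 523 and 545 bp inside the gene from its start. A further ETS1 peak at chr10:60831634-60831810 was centred 141 bp before the start, over the window printed above. At Plxna1, a receptor subunit for class 3 semaphorins, an ETS1 peak (chr6:89361750-89361926) lay wholly within an ETS2 peak (chr6:89361743-89361929), 775 bp from the upper end. The upper end of Plxna1 is also next to an end of the gene model Gm40415, 481 bp from that ETS2 peak. Sema6c, a membrane semaphorin, had an ETS1 and an ETS2 peak overlapping by 147 bp about 300 bp into the gene, at chr3:95160631-95160807 and chr3:95160661-95160847. It was the 1 stranded member with an ETS1 peak at its finish as well, 235 bp beyond the gene.

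The other 5 members in both lists carried the peaks side by side or apart. Plxnd1 had 3 ETS2 end peaks, the nearest 104 bp from its upper end at chr6:115995142-115995328, and 1 ETS1 peak 728 bp outside that end. The closest ETS1 and ETS2 centres there were 191 bp apart. At Sema3f, a secreted semaphorin that restrains vessel growth, an ETS1 peak was centred 34 bp from the upper end (chr9:107710353-107710529), and the ETS2 end peak lay 964 bp from it. At Sema6b the ETS1 peak of the printed window lay 128 bp before the start and the nearest ETS2 peak 256 bp after it. Sema5a had an ETS2 peak 117 bp into the gene between ETS1 peaks 363 bp before and 414 bp after its start. These ETS1 peaks also lay 212 and 565 bp from an end of the long non-coding gene Snhg18. Plxna4 had its ETS1 peak at the lower end and its ETS2 peaks at the upper end, 442609 bp apart.

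Members in a single list were ligands in the ETS1 list and of all kinds in the ETS2 list. The ETS1 list alone marked Ntn1, the best studied netrin, 359 bp from its upper end (chromosome 11), and Ntn3, 445 bp after its start (chromosome 17). It also alone marked the secreted semaphorin genes Sema3b (440 bp, chromosome 9) and Sema3g (206 bp, chromosome 14), the latter known from arterial endothelium. The membrane semaphorin genes Sema4a (614 bp, chromosome 3), Sema4b (238 bp, chromosome 7) and Sema5b (66 bp, chromosome 16) complete the 7. The Sema4a peak lay at the finish of the gene. The ETS2 list alone marked Sema3e 63 bp from its start (chr5:14025246-14025432) and Sema3a, a repellent of axons and endothelial cells, 474 bp beyond its finish. The plexin genes Plxna2 (598 bp) and Plxnb2 (742 bp), the GPI-anchored semaphorin gene Sema7a (770 bp) and Unc50 (111 bp) were the others. Sema3a and Sema3e lie on chromosome 5, where the whole lists held 1149 (ETS1) and 2971 (ETS2) peaks. Plxna2 and Unc50 lie on chromosome 1, with 3442 and 2935. The Unc50 peak was also within 147 bp of an end of its neighbour Coa5.

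Starts of transcription carried more of the end peaks than finishes, as in other genes. Of 38 members for which RefSeq promoter windows gave the strand, 11 had an ETS1 peak at the start and 2 at the finish (background 35.2% and 10.1%). The members without a window in the table were Plxna4, Plxna1, Unc5d, Sema3b, Sema3f, Ntn1, Sema6a and Slit1. For ETS2 the numbers were 12 and 1 (background 37.3% and 8%). RefSeq windows can also mark a start well inside a gene. Within 1 kb of any such tabulated start, 13 of 38 members had an ETS1 peak (background 38.5%), 17 an ETS2 peak (background 40.4%) and 8 both (background 29.2%). Counted in this way Plxnb1, which encodes a receptor of Sema4d, entered both lists, and Plxnb2, already in the ETS2 list, had an ETS1 peak 619 bp from a tabulated start. The tabulated start of Plxnb1 had ETS1 and ETS2 peaks 213 and 282 bp away, whereas the peaks nearest to an annotated end were 1238 and 1273 bp from it. Slit2 gained an ETS2 peak 280 bp from its tabulated start (chr5:47983342-47983528), Sema4c one at 106 bp, Robo2 one at 265 bp, and Robo1 an ETS1 peak at 269 bp (chr16:72663330-72663506). Plxnd1 and Sema4a left the ETS1 list, with their nearest ETS1 peaks 1062 and 2535 bp from a tabulated start.

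Within 1 kb of an end, ligand genes had ETS1 peaks more often than receptor genes and ETS2 peaks less often, with few genes in each class. The ETS2 order was reversed within 2.5 kb, and by length class the ETS1 order was found only under 50 kb. An ETS1 end peak was at 12 of 27 ligand (44.4%) and 5 of 17 receptor genes (29.4%), and an ETS2 end peak at 8 (29.6%) and 7 (41.2%). Both peaks were at 5 of 27 ligand (18.5%) and 5 of 17 receptor genes (29.4%), beside 28.7% of all protein-coding genes. Without chromosomes 1, 4, 5, 7, 19 and X, where ETS1 peaks were few, 16 of 32 members had an ETS1 end peak (all genes there 49.3%) and 12 an ETS2 end peak (44.0%). Genes were next compared within classes of length, under 50 kb, 50 to 150 kb and over 150 kb. Among those under 50 kb, 8 of 13 ligand and 2 of 8 receptor genes had an ETS1 end peak (background for that length 38.8%), against 4 and 3 for ETS2 (background 38.5%). Among those over 150 kb, 2 of 9 ligand and 2 of 7 receptor genes had an ETS1 peak (background 32.9%) and 3 and 3 an ETS2 peak (background 38.1%). The middle class held 5 ligand and 2 receptor genes, with ETS1 peaks at 2 and 1 (background 44.8%) and ETS2 peaks at 1 and 1 (background 47.9%). Averaged over the classes by their size, the ligand share stood 13.5 percentage points above the receptor share in the ETS1 list and at -11.4 points in the ETS2 list. The ETS2 difference turned to 15.9 points for ligands with a 2.5 kb window, and the ETS1 difference was 0.826 points at tabulated starts. The ETS1 difference was above 0 in each of the 6 ways of counting, from 0.826 to 26.9 points. The ETS2 difference was below 0 in 5 of 6, all of which kept the 1 kb window. The exception was the only way with another window, 2.5 kb, and no difference was computed within 500 bp or 5 kb. The 6 ways include the main count and reuse the same genes. The ETS1 difference came from the genes under 50 kb (61.5% of ligands against 25% of receptors). In the middle and long classes the receptor share was the higher (50% against 40%, and 28.6% against 22.2%).

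**Figure D2:**
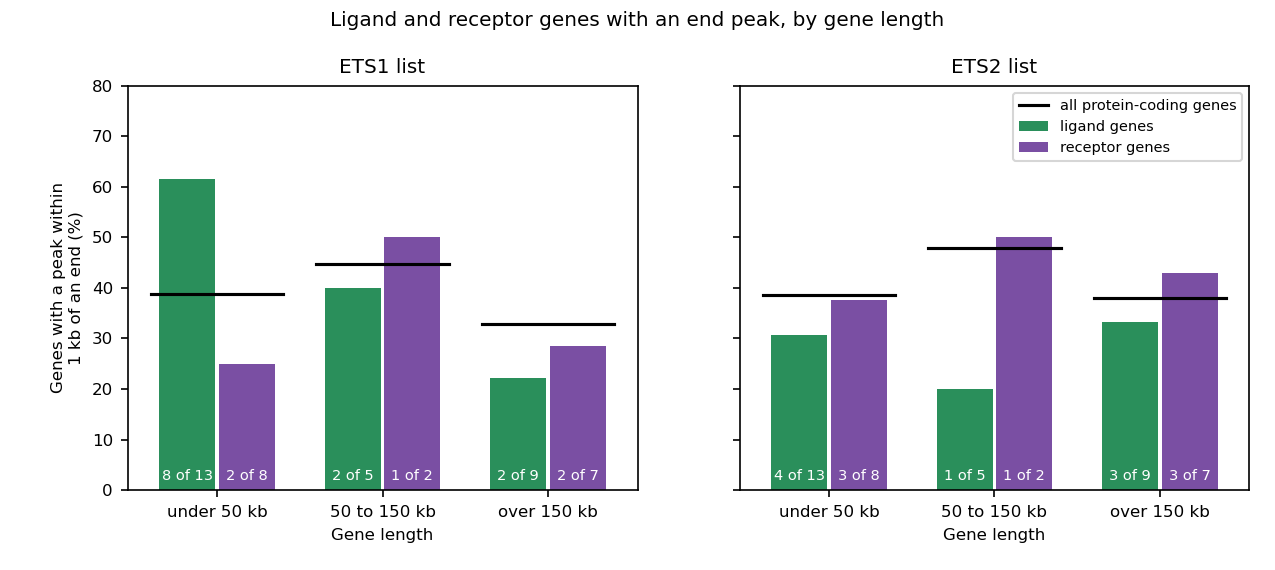
Percentage of ligand genes (green) and receptor genes (purple) with an ETS1 or ETS2 peak within 1 kb of an end, in 3 classes of gene length, with the counts in the bars. Black lines show all protein-coding genes of the same length; the share of short ligand genes (8 of 13) stands above the line in the ETS1 list and below it (4 of 13) in the ETS2 list.

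Over whole loci, guidance genes differed widely and by length. A locus is the gene with 10 kb on each side, and density is its number of peaks per 100 kb divided by the same number for its chromosome. The 46 loci held 271 ETS1 and 275 ETS2 peaks, with a median of 3 per locus in each list (all protein-coding genes: 2 and 1) and a range of 0 to 55 and 0 to 30. These medians were not matched on length. Under 50 kb they were 3.5 and 3, against 1 and 1 for all genes of the class. From 50 to 150 kb they were 2 and 1.5, against 4 and 3, and over 150 kb 3.5 and 4.5, against 5 and 4. Members under 50 kb had a median density of 2.94 for ETS1 and 4.02 for ETS2, against 1.24 and 1.41 for all genes of that length. A density above 1 was found in 14 of these 22 for ETS1 (background 53.5%) and in 20 for ETS2 (background 55.5%). The short members had a median length of 16.8 kb and all short genes one of 11.05 kb, so lengths differed within the class, and all short genes enter the comparison whether or not endothelial cells use them. Members over 150 kb had median densities of 0.321 and 0.482, against 0.584 and 0.638 for all genes of that class. In the 8 members of 50 to 150 kb the medians were 0.443 and 0.489, against 1.31 and 1.29. Lengths differed within these classes too. The median length was 406.5 kb in long members and 248.3 kb in all long genes, and 106.5 against 78.7 kb in the middle class.

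**Figure D3:**
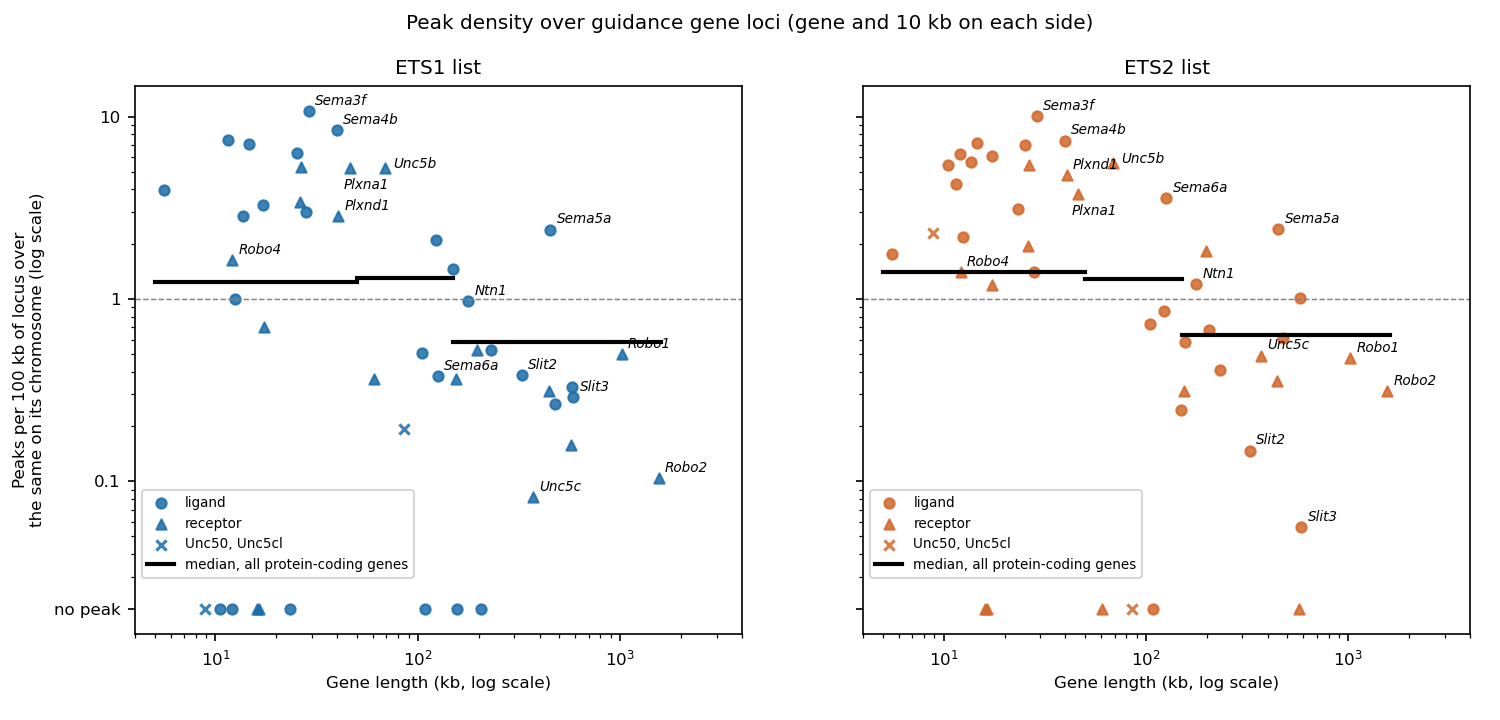
Peaks per 100 kb of locus divided by the same on the gene's chromosome (log scale, with loci without a peak at the bottom) against gene length in kb (log scale), for ligand genes (circles), receptor genes (triangles) and Unc50 and Unc5cl (crosses). Thick lines are medians of all protein-coding genes in 3 length classes; short loci such as Sema3f reach 10.7 in the ETS1 list, while Slit3 lies at 0.0561 in the ETS2 list.

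A few loci held much of the total. With a peak over neighbouring members counted at each, the loci held 272 ETS1 and 276 ETS2 peaks. The 5 fullest had 128 of the ETS1 peaks (47.1%), at Sema5a, Unc5b, Sema3f, Robo1 and Plxna1, and 127 of the ETS2 peaks (46.0%), at Plxnd1, Unc5b, Sema5a, Plxna1 and Plxna4. Sema5a, which encodes a membrane semaphorin with thrombospondin repeats, had 55 ETS1 and 27 ETS2 peaks over a gene of 451.5 kb on chromosome 15. Of these 9 were shared between the lists (overlap of at least 1 bp), from 5039 bp before the start to 186595 bp into the gene. Its densities were 2.40 and 2.41, each the highest of any member over 150 kb.

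Unc5b, the netrin receptor gene of endothelium, had 22 ETS1 and 27 ETS2 peaks over a gene of 69.0 kb on chromosome 10, and 10 of them overlapped, the most of any member. The shared peaks ran from 523 bp after the start to 78941 bp from it, beyond the finish. The last of these lay near the neighbour Slc29a3, an end of which had 3 of the ETS1 and 1 of the ETS2 peaks within 1 kb. Densities were 5.23 and 5.55. The median gap between neighbouring peaks was 1.94 kb for ETS1 and 1.81 kb for ETS2, so peaks were strung along the gene and not gathered at its start. The other Unc5 receptor genes were sparse, with 1 ETS1 and 0 ETS2 peaks at Unc5a, 1 and 3 at Unc5c, and 4 and 0 at Unc5d.

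Sema3f had the highest density in both lists, 10.7 for ETS1 and 10.1 for ETS2, from 20 and 11 peaks over a gene of 29.0 kb on chromosome 9. Of the ETS1 peaks 17 lay inside the gene, at a median gap of 0.911 kb. Only 2 were shared with the ETS2 list, 7836 and 6728 bp from the upper end (chr9:107702551-107702727 and chr9:107703659-107703835). Next in the ETS1 list were Sema4b (8.46, from 4 peaks) and Sema3b (7.49, from 9 peaks), followed by Sema4g (7.10, from 2 peaks) and Sema4a (6.35, from 9 peaks). In the ETS2 list they were Sema4b (7.41, from 8 peaks), Sema4g (7.21, from 6 peaks), Sema4a (7.03, from 5 peaks) and Sema4c (6.23, from 3 peaks). Sema4b and Sema4g lie on chromosomes 7 and 19, where the ETS1 list had only 0.791 and 0.812 peaks per 100 kb. Before division by the chromosome they had 6.69 and 5.77 ETS1 peaks per 100 kb, against 28.5 at Sema3b and 19.9 at Sema4a. Of the 6 ETS2 peaks of Sema4g 5 stood at the ends of its neighbours Mrpl43, Slf2 and Twnk, and 2 of the 3 of Sema4c at Ankrd39. Over all members, 11 ETS1 and 18 ETS2 locus peaks were within 1 kb of an end of another protein-coding gene.

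Plexins on chromosome 6 held many ETS2 peaks. Plxnd1 had 6 ETS1 and 30 ETS2 peaks over a gene of 40.5 kb, Plxna1 12 and 26 over 46.3 kb, and Plxna4 5 and 17 over 443.7 kb. That chromosome was the densest of the ETS2 list, with 10.4 peaks per 100 kb against 3.46 for ETS1. Relative to it, the densities were 4.78 at Plxnd1, 3.78 at Plxna1 and 0.353 at Plxna4 for ETS2, and 2.86, 5.23 and 0.312 for ETS1. Shared peaks numbered 2 at Plxnd1, 4 at Plxna1 and 0 at Plxna4. Sema4f on the same chromosome, with no end peak, had 5 and 7 peaks. Plxnb2, a widely expressed plexin gene on chromosome 15, had 12 ETS1 and 6 ETS2 peaks and densities of 5.32 and 5.44.

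**Figure D4:**
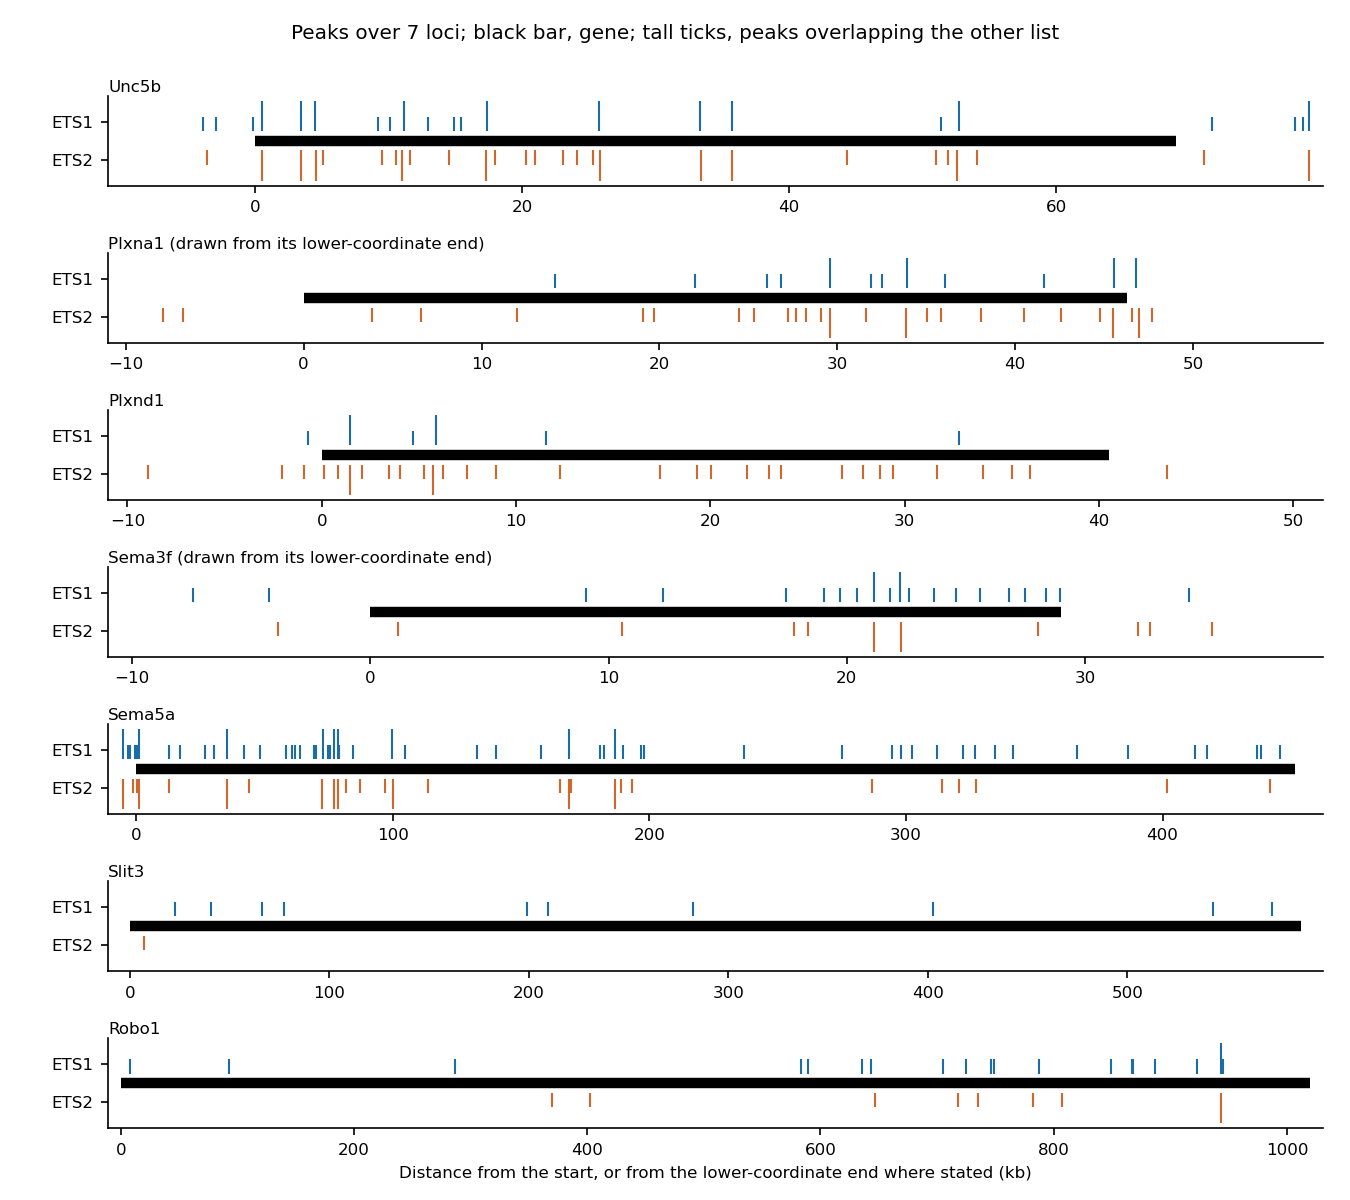
Peaks along 7 guidance gene loci by distance in kb from the start, or from the lower-coordinate end for Plxna1 and Sema3f, with ETS1 ticks above and ETS2 ticks below the gene (black bar); tall ticks overlap a peak of the other list. Unc5b has 10 shared ETS1 peaks along its length, Slit3 has 10 ETS1 peaks and 1 ETS2 peak, and Robo1 has 14 of its 19 ETS1 peaks after its tabulated inner start.

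Slit and Robo genes were the families without an end peak in either list, among 3 and 4 genes (49.3% of all protein-coding genes had none). This holds for the annotated ends only. Slit2 and Robo2 had an ETS2 peak, and Robo1 an ETS1 peak, within 1 kb of a tabulated start. Slit1 had 2 ETS1 and 1 ETS2 locus peaks, Slit2 1 and 1, and Slit3 10 and 1. Slit3 is 587.1 kb long, so its 10 ETS1 peaks gave a density of 0.289 and its ETS2 peak 0.0561, the lowest of any locus with a peak in that list. Slit2 lies on chromosome 5, where ETS1 peaks were few. Robo4, which spans 12.1 kb on chromosome 9, had no peak inside the gene. The nearest were an ETS1 peak 7181 bp before it and, beyond its finish, an ETS1 and an ETS2 peak within the neighbouring Robo3 at 7385 and 6967 bp. Robo3, an axon midline receptor gene, had no other peak. Robo1, 1020.0 kb long on chromosome 16, had 19 ETS1 and 8 ETS2 peaks. They were unevenly placed about its tabulated start, which lies 635.6 kb inside the annotated gene. Before it the ETS1 list had 0.787 and the ETS2 list 0.315 peaks per 100 kb, and after it 3.64 and 1.56. Robo2, the longest member, had 6 and 8 peaks, with 0.483 and 0.290 before its innermost tabulated start and 0.192 and 0.962 after it.

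Secreted semaphorin genes on chromosome 5 had at most 1 ETS1 peak and 2 to 6 ETS2 peaks each. Sema3c and Sema3d had no ETS1 and 2 and 3 ETS2 peaks, Sema3a 1 and 6, and Sema3e, the ligand of plexin D1, 1 and 2. The nearest ETS1 peak to an end of Sema3c lay 1070533 bp away. Semaphorin genes of class 6, ligands of A-type plexins, had 2 and 9 peaks at Sema6a (chromosome 18), 6 and 5 at Sema6b, 3 and 3 at Sema6c, and 8 and 12 at Sema6d. Sema6a had no end peak, although an ETS1 and an ETS2 peak overlapped nearby, 2135 and 2195 bp from its upper end. Sema5b had 11 ETS1 peaks and 2 ETS2 peaks. Sema7a had 0 and 3 peaks, and Plxnc1, which encodes its receptor, 3 and 3 without an end peak. Plxna2 had 2 and 6, Plxnb1 6 and 2, Unc50 0 and 1, and Unc5cl 1 and 0.

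Of the 4 netrin genes 3 had an ETS1 end peak and 1 an ETS2 end peak (background 39.4% and 40%), too few genes to set them apart. Ntn1 had 11 ETS1 and 7 ETS2 locus peaks, Ntn3 5 and 1, Ntn4 3 and 5, and Ntn5 0 and 3. Ntn4, a netrin of basement membranes, had an ETS1 peak 907 bp after its start (chr10:93641868-93642044) that overlapped an ETS2 peak (chr10:93641745-93641931) by 64 bp. A second ETS2 peak stood 370 bp after the start. Ntn5 lies on chromosome 7, where the ETS1 list had 0.791 peaks per 100 kb.

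No peak of either list was found over 3 member loci (background 25.8%). These were Plxna3 and Plxnb3 on the X chromosome, where whole-chromosome density was 0.0556 (ETS1) and 0.0234 (ETS2) per 100 kb, and Sema4d on chromosome 13, where it was 3.39 and 1.71. Sema4d, a membrane semaphorin of immune cells and vessels, spans 108.2 kb, and its nearest peaks lay 30952 bp (ETS1) and 32860 bp (ETS2) from an end.

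Peaks shared between the lists made up a lower percentage over guidance loci than over all protein-coding loci, within the counting interval for ETS1 and just outside it for ETS2. Of 271 ETS1 peaks 42 overlapped an ETS2 peak (15.5%, 95% Wilson interval 11.7 to 20.3), beside 17.2% of ETS1 peaks over all protein-coding loci. Of 275 ETS2 peaks 42 were shared (15.3%, 11.5 to 20.0), beside 20.8%. These intervals cover counting error only and treat peaks as independent, although shared peaks were gathered in a few genes. Members on chromosome 6, the densest of the ETS2 list, held 80 ETS2 locus peaks. Of these, 4 at Plxna1, 2 at Plxnd1, 1 at Sema4f and 0 at Plxna4 were shared. The comparison was not adjusted for chromosome. Shared peaks were found at 17 members, and Unc5b and Sema5a held 10 and 9 of them. At gene ends lay 6 of the shared ETS1 peaks. The lists name no rank for their order. In the first 10% of the rows were 12 ETS1 (4.43%) and 23 ETS2 peaks (8.36%). The earliest was an ETS2 peak of Plxnd1, at 1.13% of the order, and in the ETS1 list a peak of Unc5b, at 4.60%.

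Along genes, peaks beyond 10 kb from the start were sparser in the members than in all genes, without matching on length. In the 38 stranded members, within 1 kb of the start there were 1.84 ETS1 and 2.10 ETS2 peaks per 10 kb, beside 2.34 and 2.48 in all 17492 stranded genes. From 1 to 10 kb into the gene there were 0.713 and 0.862, beside 0.686 and 0.541. Beyond 10 kb in the gene there were 0.198 and 0.181, beside 0.346 and 0.291. The interior of long genes makes up most of the length here, and these values were neither matched on gene length nor set against the chromosomes.

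Members known for a part in vessels had end peaks at shares near the background. Of the 15 (Robo4, Robo1, Unc5b, Plxnd1, Plxnb1, Sema3a, Sema3e, Sema3f, Sema3g, Sema4d, Sema6a, Slit2, Slit3, Ntn1 and Ntn4), 6 had an ETS1 end peak (40%, background 39.4%), 6 an ETS2 end peak (40%, background 40%) and 4 both (26.7%, background 28.7%). Among the other 31 members the numbers were 11 (35.5%), 10 (32.3%) and 6 (19.4%).

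Partners of the guidance genes, from a list of 43, carried end peaks at higher shares than the members, without a test. An ETS1 peak was at 23 (53.5%), an ETS2 peak at 24 (55.8%) and both at 19 (44.2%), beside the background of 39.4%, 40% and 28.7%. These shares were not matched on length. The median length was 110.6 kb for the partners, 64.9 kb for the members and 17.2 kb for all protein-coding genes. Among all genes of 50 to 150 kb the shares were 44.8% (ETS1) and 47.9% (ETS2). Of 9 co-receptors and other receptors 4 had both, Nrp1, Neo1, Itgb1 and Met. The class 3 semaphorin co-receptor gene Nrp1 had its peaks 209 and 179 bp from an end, and Neo1, which encodes the netrin receptor neogenin, 454 and 287 bp. Nrp2, the co-receptor of Sema3f, had neither, with its nearest ETS2 peak at 2755 bp and no ETS1 peak over its locus. Dcc, the attractive netrin receptor gene, had neither and 4 ETS1 and 2 ETS2 peaks. Of 27 intracellular transducers 16 had an ETS1 peak, 16 an ETS2 peak and 13 both. These 13 were Mical1, Dpysl3, Farp2, Arhgef11, Arhgef12, Rasa1, Srgap1, Srgap2, Srgap3, Nck1, Dock1, Ptk2 and Fyn, and the Srgap genes encode GTPase-activating proteins that bind Robo receptors. Of 7 other ligands 3 had an ETS1 and 4 an ETS2 peak, with both at Ntng2 and Rgmb.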

How the data were processed

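Peak lists were used, 1 per antibody (ETS1 and ETS2). The submitters' processing notes name CASAVA 1.8, Bowtie2 and HOMER as tools, and both mm9 and mm10. Per the file headers, HOMER findPeaks was run in its factor style on mm10 tag directories with no control directory, a false discovery rate of 0.01 and a threshold of 30 tags in a peak. The command set the fold, local and control filters to 0. The score deposited by the authors is 1 in every row and ranks nothing, so only the deposited positions (177 and 187 bp wide, another unit than a measurement) and their order were used.

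Peak centres within 1 kb of a RefSeq gene end, and over the gene and 10 kb around it, were counted with Python 3.11.15 and pandas 2.3.3, on chromosomes 1 to 19, X and Y. Chromosome lengths were taken as the last gene or peak base. Code was tested on simulated data. No test between libraries was possible.

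Members described are those with both end peaks, a vessel list, the 5 fullest and 5 densest loci, and those without a peak, with the rest in counts. Members, lists and rules were chosen with earlier results of these data known. All 43 partner genes matched a symbol. Strand came from RefSeq promoter windows, and 38 of 46 members matched one.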

Additional observations from a re-analysis of the deposited data

How the results depend on the processing

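There is 1 library per antibody, so no library could be left out. No paired analysis was possible because the groups compared share fewer than 2 replicate numbers. Members with an ETS2 end peak numbered 16 within 1 kb, 10 within 500 bp, 26 within 2.5 kb and 28 within 5 kb (34.8%, 21.7%, 56.5% and 60.9%, beside 40%, 31.9%, 47.7% and 53.9% of all protein-coding genes). Members with both peaks numbered 10, 5, 17 and 19 (21.7%, 10.9%, 37.0% and 41.3%, beside 28.7%, 20.4%, 36.5% and 43.0%). At the start alone, 11 of 38 members had an ETS1 peak. The ligand minus receptor difference was 8.46 (ETS1) and 15.9 points (ETS2, reversed) within 2.5 kb. For ETS1 it was 26.7 points with length classes of 30 and 100 kb. It was 26.9 without chromosomes 1, 4, 5, 7, 19 and X, where ETS1 peaks are sparse, and 0.826 at tabulated RefSeq starts. These last alternatives were chosen after seeing the data. Without those chromosomes the median ETS1 number per locus was 5.5 in place of 3, its density 0.986 in place of 0.515, and the ligand median 7.69 in place of 2.40 ETS1 peaks per 100 kb. In the first 50% of the deposited order, which holds fewer peaks, the median ETS1 number was 1, and the shared shares were 9.70% (ETS1) and 9.22% (ETS2). Shared shares were 28.0% and 26.9% for centres within 500 bp, and 10.7% and 10.5% where at least 50% of an ETS1 peak had to overlap. Neither these shares nor those in the first 50% of the order were computed over all protein-coding loci, so they have no background. The receptor median of 2.67 ETS2 peaks per 100 kb was 0.770 without chromosomes 1 and 6, which hold 4 of the 9 plexin genes, and 1.30 over the gene span alone. Beyond these constructions the cause was not tested. The other end counts, with any base of the peak, the first 50% of the order or chromosomes left out, stayed within 1.5 times. Without an input library analysed and with 30 tags as one threshold, a missing peak shows only that this threshold was not reached.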
